A study of Mus musculus with 10 samples.

Results

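The genes described here are the ligands and receptors of the tumour necrosis factor (TNF) superfamily whose symbols start with Tnfsf (ligands) or Tnfrsf (receptors). They were taken as the protein-coding genes with such symbols in the GENCODE annotation of the mouse genome build GRCm38. The count table held 32 of them, 20 receptors and 12 ligands, among 49671 genes, and 26 had enough reads to be tested. RNA was sequenced from TH2 cells, the helper T cells whose hallmark cytokines are IL-4, IL-5 and IL-13. Naive CD4+ T cells came from C57BL/6 mice of WT genotype, all second-generation offspring, and were polarised until their harvest on day 5. The control group of 3 libraries came from mice whose regular diet held vitamin D3 at 400 IU per kg. The deficient group of 7 libraries came from mice that were bred and raised without UV light on a diet devoid of vitamin D metabolites. Neither group had a further treatment; no source used here gives the ages of the mice or the polarising cytokines. Batch 1 held 2 control and 5 deficient libraries and batch 2 held 1 control and 2 deficient libraries. Whether each library is a separate mouse is not in the labels, so p-values measure the spread between these libraries, which may be technical.

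TNF superfamily ligands are trimeric proteins on the cell surface that can also be shed, and they act by clustering their receptors on a neighbouring cell. Receptors without a death domain recruit TRAF adaptors and switch on NF-kappaB and kinase pathways, receptors with a death domain can start caspase-driven death, and decoy receptors bind a ligand without passing on a signal. In helper T cells the family is best known for co-stimulation after antigen contact, by OX40 (Tnfrsf4), 4-1BB (Tnfrsf9), GITR (Tnfrsf18) and CD30 (Tnfrsf8), of which OX40 and its ligand favour TH2 responses.

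Libraries held between 5800698 and 13433276 counts, and the controls were the shallowest 3. The 8 genes taken to define TH2 cells were all detected, and their sum ran from 1165 to 1229 CPM in controls (CPM is a gene's counts scaled to the library's total counts) and from 770 to 947 CPM in deficient libraries, with Cd4, Cd3e, Gata3 and Il1rl1 among the 5 that fell and Il5 and Il13 the 2 that rose. Markers of CD8 and cytotoxic lymphocytes summed to 98.8 to 200 CPM in controls and 686 to 1958 CPM in deficient libraries, with 8 of 9 higher, led by Klrd1, Nkg7, Gzmb and Klrk1. B cell markers summed to 16.9, 12.8 and 104 CPM in controls 1 to 3 and to 55.5 to 334 CPM in deficient libraries, with 2 of 8 tested higher (Ighm and Cd79a). Both sums were highest among the deficient group in libraries 5, 6 and 7 (1958, 1782 and 1490 CPM, and 304, 296 and 334 CPM), which stand apart in several values below; library 5 is of batch 1, and 6 and 7 are the deficient libraries of batch 2. Regulatory T cell markers summed to 1273 to 1317 and 1043 to 1140 CPM with Foxp3 at or near 0 in all libraries (up to 0.303 CPM); 1 rose (Ikzf2) and 2 fell (Ctla4 and Lrrc32) of 6 tested. Myeloid and dendritic markers summed to at most 6.998 CPM, with Adgre1 higher. Stromal and endothelial markers summed to 36.0 to 39.3 CPM in controls and 20.1 to 33.0 CPM in deficient libraries, with Pecam1 lower. By the test of the diets described below, 29.4% of all genes were called higher and 28.6% lower. The B cell markers called higher and the regulatory T cell markers called were near these shares.

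The first question was which members the TH2 cells express. Levels of different genes were compared as RPKM, which is CPM divided by the length of a gene's merged exons in kilobases. In control cells 20 of the 32 members had a mean of at least 1 RPKM, 13 receptors and 7 ligands, and in deficient cells 18 did, 12 receptors and 6 ligands. The 3 most abundant members of control cells were co-stimulatory receptors, in the order Tnfrsf18 at 453 ± 21.2 RPKM (SD, n = 3), Tnfrsf4 at 366 ± 27.2 RPKM and Tnfrsf9 at 295 ± 17.9 RPKM, and the ranges of these 3 did not overlap. The ligand genes Tnfsf8 (CD30 ligand), Tnfsf14 (LIGHT) and Tnfsf11 (RANK ligand) followed at 84.9 ± 5.24, 50.6 ± 3.16 and 40.4 ± 4.22 RPKM, again without overlap. Next came Tnfrsf13b at 23.6 ± 1.45 RPKM, which encodes TACI, a receptor of the B cell factors BAFF and APRIL, and Tnfrsf8 at 14.1 ± 0.713 RPKM. Below these, Tnfsf10 (TRAIL), Tnfrsf26, Tnfrsf14 (HVEM), Tnfrsf19 (TROY) and Tnfrsf1b (TNF receptor type 2) lay between 8.62 and 6.74 RPKM, and each overlapped the next. Another 7 members, from Tnfrsf12a at 4.002 RPKM to Tnfrsf10b at 1.24 RPKM, completed the 20.

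In deficient cells the order at the top was another one. Tnfrsf9 led at 364 ± 51.0 RPKM (SD, n = 7), ahead of Tnfrsf4 at 243 ± 33.3 RPKM and Tnfrsf18 at 236 ± 10.8 RPKM, which overlapped each other but not Tnfrsf9. Tnfsf8 at 111 ± 22.4 RPKM and Tnfsf11 at 86.4 ± 25.1 RPKM came next and overlapped. Tnfsf4, the OX40 ligand gene, stood at rank 18 in control cells with 2.33 ± 0.644 RPKM and at rank 7 in deficient cells with 22.0 ± 3.94 RPKM. Tnfrsf19 moved from rank 12 to rank 28. The plot of level per length sets these values side by side.

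**Figure D1:**
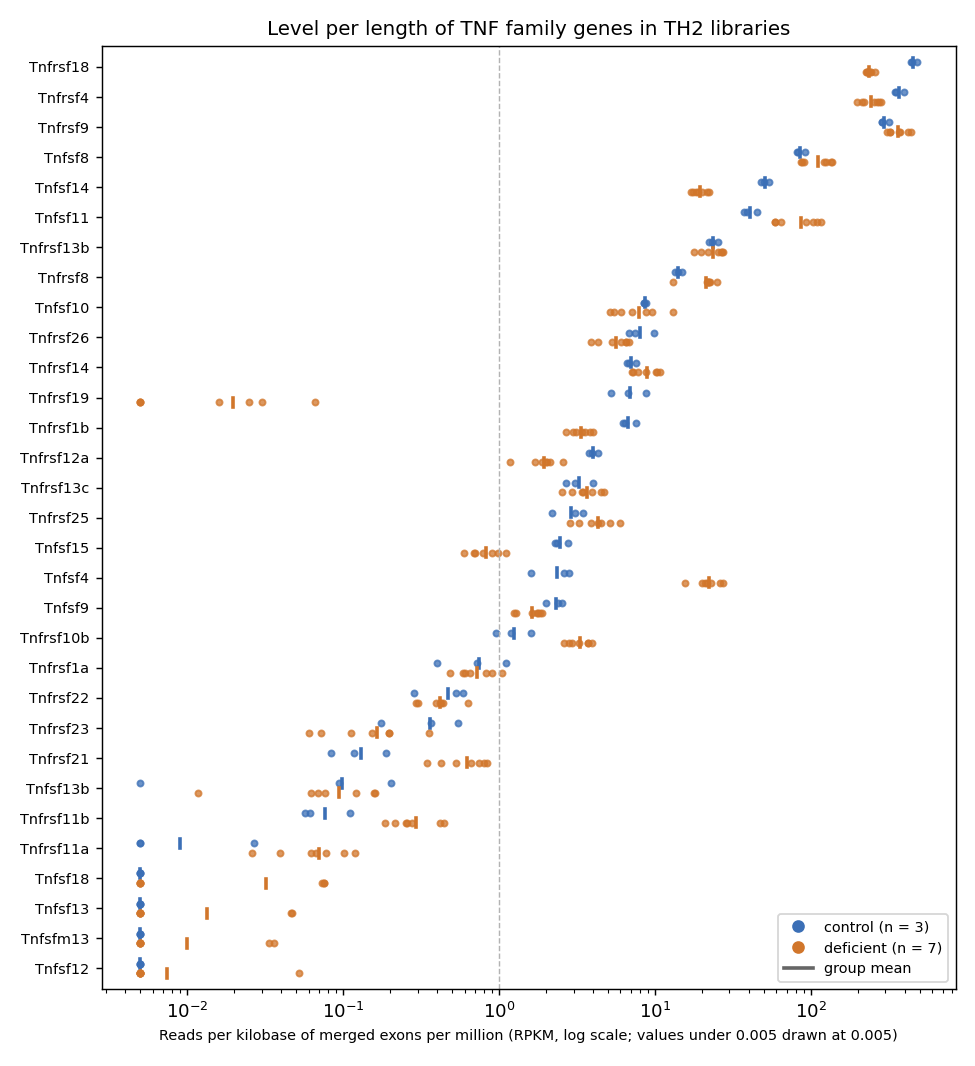
Each point is 1 library and each bar the group mean, in RPKM on a log axis, for the 31 members with at least 1 count, ordered by the control mean. Tnfrsf18, Tnfrsf4 and Tnfrsf9 head the control order, and Tnfsf4 (higher in deficient libraries) and Tnfrsf19 (lower) show the widest gaps between the groups.

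The 6 members without enough reads to be tested lay near 0. Tnfrsf17, which encodes BCMA of plasma cells, had 0 counts in all 10 libraries, where 3 counts would equal 0.223 to 0.517 CPM. Tnfsf18, the GITR ligand gene, had 0 counts in the controls and 6 in the deficient libraries together. Tnfrsf11a, which encodes RANK, the receptor of the abundant Tnfsf11, had 1 control count and 33 deficient counts, a ratio of 7.59 with a 95% counting interval of 1.27 to 309 that covers counting error only. Tnfsf12 (TWEAK), Tnfsf13 (APRIL) and the joint gene Tnfsfm13 had 1, 2 and 2 counts in all libraries together. These 3 genes lie on the same strand of chromosome 11 with overlapping exons: 46.8% of the 50-base stretches of Tnfsf12 and 57.3% of those of Tnfsf13 also occur in another gene, mainly Tnfsfm13. A counter that discards reads shared between genes would miss much of them, so their low counts do not show that they were silent.

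The second question was which members differ between the diets. Of the 26 members tested, 6 were higher in deficient cells and 9 were lower (edgeR's quasi-likelihood test with batch as covariate, Benjamini-Hochberg adjusted p below 0.05 over 13699 genes). Over all genes tested 58.0% passed, 29.4% upward and 28.6% downward, so the 57.7% of members that passed is close to the share of all genes. A change of at least 1 on the log2 scale was reached by 11 members, 42.3% of those tested, against 19.0% of all genes. Of these members 4 were higher (10.3% of all genes) and 7 lower (8.71%). Among them, Tnfrsf11b and Tnfrsf21 had enough reads to be tested only through deficient libraries, and Tnfrsf19 only through controls. Each of these was thus testable only because of the group where it was high. The median log2 fold change, deficient minus control, was -0.12 over the members tested and 0.02 over all genes. The groups did not overlap in CPM for 13 members, 50% of those tested, 5 with all deficient libraries above and 8 with all below the controls, against 50.8% of all genes (29.4% and 21.4%). Receptors and ligands each went both ways: of 18 receptors tested 4 rose and 7 fell, and of 8 ligands 2 rose and 2 fell. In bulk libraries like these, fewer cells that express a gene and less RNA of it per cell cannot be told apart. Leaving out control library 1 reduced the members called higher from 6 to 3.

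**Figure D2:**
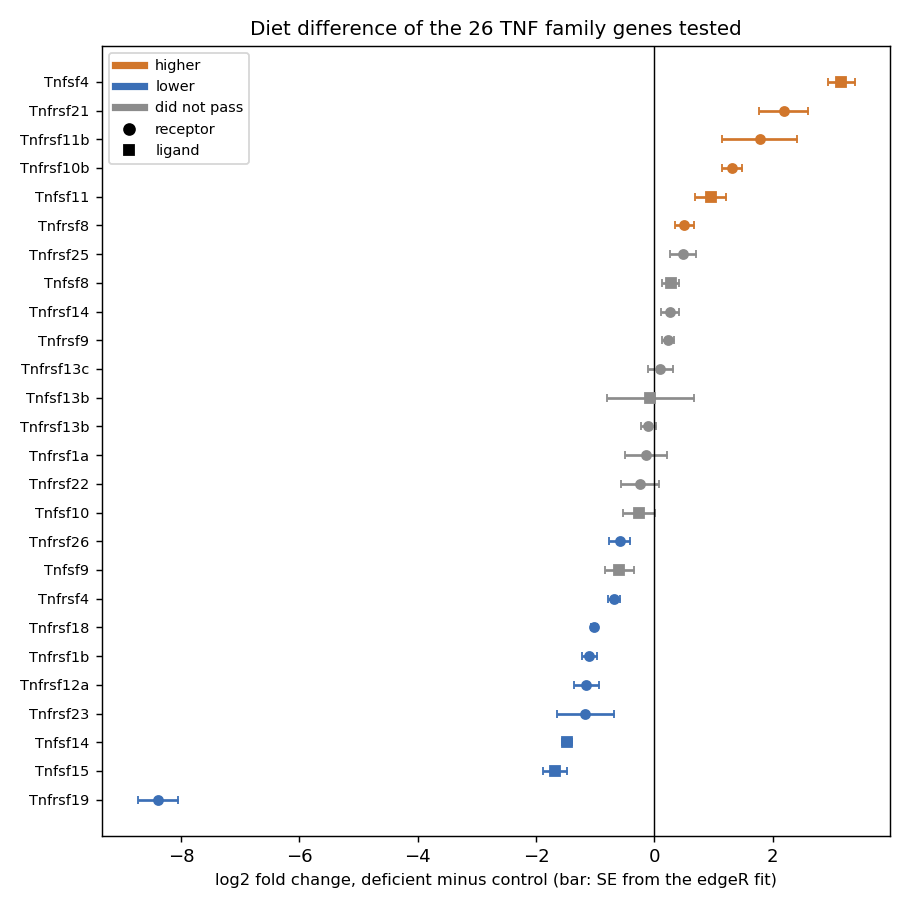
Log2 fold change (deficient minus control, horizontal axis) with its SE for each of the 26 members tested, circles for receptors and squares for ligands. Colour marks the 6 higher, the 9 lower and the 11 that did not pass, and Tnfrsf19 at -8.40 and Tnfsf4 at 3.16 lie at the ends.

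Among the ligands, the OX40 ligand gene Tnfsf4 (ENSMUSG00000026700, chromosome 1, 161395409 to 161418410) showed the largest rise among the members tested. Controls 1 to 3 read 4.83, 5.13 and 2.94 CPM, whereas the deficient libraries spanned 28.5 to 49.95 CPM with a median of 39.4 CPM. All 7 deficient libraries lay far above the controls, and libraries 5, 6 and 7 were the highest, at 48.4, 49.95 and 42.3 CPM. The log2 fold change was 3.16 (SE 0.224, edgeR adjusted p = 1.49e-07), and the mean rose 9.44-fold from 4.30 ± 1.19 to 40.6 ± 7.26 CPM. Antigen-presenting cells are the classical source of this ligand, and activated T cells can also make it. Myeloid and dendritic markers summed to at most 5.42 CPM in controls. They summed to 6.33, 6.998 and 5.75 CPM in deficient libraries 5, 6 and 7, where Tnfsf4 was also highest. In deficient libraries 1 to 4 these sums ran from 2.35 to 4.14 CPM, below that of control 3, while Tnfsf4 read 28.5 to 39.4 CPM. Control 3 held the highest myeloid and B cell marker sums of the controls (5.42 and 104 CPM) and the lowest Tnfsf4 (2.94 CPM). Cytotoxic marker sums lay above all controls in all 7 deficient libraries, and B cell marker sums in libraries 5 to 7. The part of these markers in the result was not tested.

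Tnfsf11 (chromosome 14, 78277445 to 78308043) encodes RANK ligand, which drives the formation of osteoclasts and is made by activated T cells. Its controls read 83.1, 87.1 and 101 CPM, and deficient libraries 1 to 7 read 260, 245, 231, 209, 131, 132 and 144 CPM. The groups did not overlap, and libraries 5, 6 and 7 were the lowest of the deficient group. The gene rose by 0.95 on the log2 scale (SE 0.263, edgeR adjusted p = 0.0146). Without control library 1 or control library 2 it missed the threshold (0.84 in both fits), within batch 2 the value was 0.39, and without deficient libraries 5 to 7, a fit added with these values known, it was 1.38.

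The CD30 ligand gene Tnfsf8 (chromosome 4, 63831308 to 63861347), the most abundant ligand, showed the same split. Its CPM were 313, 311 and 346 in controls 1 to 3, then 460, 473, 513, 517, 336, 346 and 326 in deficient libraries 1 to 7. Libraries 1 to 4 lay above all controls, and libraries 5 to 7 lay within the control range. The log2 fold change of 0.27 (SE 0.149, edgeR adjusted p = 0.146) did not pass. It passed at 0.47 within batch 1, at 0.38 without the count filter, at 0.46 without control library 3 and at 0.33 without deficient library 5. It also passed at 0.56 without libraries 5 to 7, but these were set apart by values such as these, which builds in a larger rise. Tnfsf10, which encodes the death ligand TRAIL, stood at 46.4, 44.9 and 44.9 CPM in controls 1 to 3 and, in order, at 68.5, 50.6, 37.7, 46.4, 28.5, 27.0 and 31.7 CPM in the deficient group. Its deficient libraries thus lay on both sides of the controls, with 5 to 7 lowest, and its log2 fold change was -0.26 (edgeR adjusted p = 0.442); within batch 2 it passed at -0.68. The 12 ligand genes summed to 559, 548 and 599 CPM over controls 1 to 3 and to 864, 849, 862, 857, 580, 592 and 583 CPM over deficient libraries 1 to 7, so the sums of libraries 5 to 7 lay inside the control range.

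Of the 32 members 9 lie on chromosome 4, and these did not share a direction: Tnfrsf4, Tnfrsf18, Tnfrsf1b and Tnfsf15 fell, Tnfrsf8 rose, and Tnfrsf9, Tnfrsf14, Tnfrsf25 and Tnfsf8 did not pass.

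The LIGHT gene Tnfsf14 and the TL1A gene Tnfsf15 fell in all 7 deficient libraries. Tnfsf14 (chromosome 17, 57189492 to 57194177), whose product binds HVEM and the lymphotoxin beta receptor, had controls at 99.99, 88.7 and 91.9 CPM and deficient libraries from 31.6 to 40.8 CPM, median 34.7 CPM. No deficient library reached as much as any control, and libraries 5 to 7 were the lowest, at 32.2, 31.6 and 34.0 CPM. The log2 fold change was -1.48 (SE 0.0812, edgeR adjusted p = 1.06e-09). Tnfsf15 (chromosome 4, 63727084 to 63745113), a ligand that co-stimulates T cells through DR3, had controls at 7.59, 7.86 and 9.28 CPM against a deficient range of 2.00 to 3.70 CPM, median 2.63 CPM. Here too the groups were apart and libraries 5 to 7 the lowest, at 2.00, 2.31 and 2.35 CPM, with a log2 fold change of -1.69 (SE 0.202, edgeR adjusted p = 4.12e-06). Tnfsf15 lies 86194 bases from Tnfsf8, which did not fall.

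The remaining ligands tested were low. Tnfsf9, the 4-1BB ligand gene, had means of 2.98 ± 0.369 and 2.09 ± 0.335 CPM for the control and deficient diet, with no overlap but an edgeR adjusted p of 0.0513; it passed, at -0.60 to -0.79, in 5 of 21 alternatives. It shares 11.5% of its 50-base stretches with Gm11110 on the opposite strand, and as no source gives the strand setting of the counting, its value is uncertain. Tnfsf13b, the BAFF gene, had 12 control and 54 deficient counts and no detectable difference at this depth (edgeR adjusted p = 0.94).

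The co-stimulatory receptors of highest level did not move together. Tnfrsf18 (ENSMUSG00000041954, chromosome 4, 156026164 to 156028895), which encodes GITR, stood at 679, 665 and 727 CPM in controls 1 to 3, and the deficient libraries ranged from 344 to 393 CPM with a median of 353 CPM. The groups were far apart, and the deficient libraries differed little among themselves, libraries 5 to 7 included. The log2 fold change was -1.02 (SE 0.0493, edgeR adjusted p = 2.64e-10). Its antisense neighbour Gm16008 stood at 1.55 CPM or less in every library.

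Tnfrsf4 (chromosome 4, 156013843 to 156016612), the OX40 gene, ends 9551 bases before Tnfrsf18. Controls 1 to 3 stood at 475, 483 and 543 CPM, and the deficient group read 385, 374, 347, 362, 270, 289 and 299.5 CPM for libraries 1 to 7. All deficient libraries were below the controls, and libraries 5 to 7 were the lowest. The log2 fold change was -0.69 (SE 0.108, edgeR adjusted p = 0.000202), and -0.47 without deficient libraries 5 to 7, a fit added with these values known. Receptor and ligand of this pair therefore moved in opposite directions, the OX40 gene down and its ligand gene Tnfsf4 up.

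Tnfrsf9 (chromosome 4, 150914562 to 150946102), which encodes 4-1BB, a receptor that appears on T cells after activation, had 772, 775 and 858 CPM in controls 1 to 3. Deficient libraries 1 to 7 read 1005, 875, 870, 838, 1193, 1142 and 1009 CPM. Library 4 lay within the control range and the other deficient libraries above it. The gene lies opposite Camta1, which stood at 8.98 CPM or less in every library. The log2 fold change of 0.23 (SE 0.106, edgeR adjusted p = 0.0889) did not pass, although it passed, at 0.17 to 0.34, in 6 of 22 alternatives, among them DESeq2 (0.23), total counts scaling (0.31) and the fits without deficient library 4 (0.27) or 5 (0.17).

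Tnfrsf8 (chromosome 4, 145267137 to 145315164), the CD30 gene, rose by 0.51 on the log2 scale (SE 0.164, edgeR adjusted p = 0.0223), from 48.4, 51.5 and 46.6 CPM in the controls. Deficient library 3, at 45.4 CPM, lay below all controls, and the other 6 lay between 74.96 and 86.2 CPM. The call depended on the libraries used: the threshold was missed without control library 1 (0.53), 2 (0.55) or 3 (0.43), within batch 1 (0.43) and without deficient libraries 5 to 7 (0.37). Tnfrsf14, the gene of the LIGHT receptor HVEM, was at 10.03 ± 0.710 and 12.8 ± 2.26 CPM (log2 0.27, edgeR adjusted p = 0.138), with deficient libraries 5, 6 and 7 highest at 15.5, 14.6 and 14.9 CPM. Tnfrsf25, the gene of the TL1A receptor DR3, was at 6.61 ± 1.46 and 9.76 ± 2.45 CPM (log2 0.48, edgeR adjusted p = 0.0726) and passed, at 0.56 to 0.72, in 5 of 22 alternatives, including those without control library 2 (0.71) or deficient library 4 (0.56). For both genes the groups overlapped. The fall of Tnfsf14 and Tnfsf15 thus had no counterpart in a called change of Tnfrsf14 or Tnfrsf25. The gene of the lymphotoxin beta receptor, Ltbr, which LIGHT also binds, had too few reads to be tested (means of 0.592 and 0.414 CPM in control and deficient libraries).

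**Figure D3:**
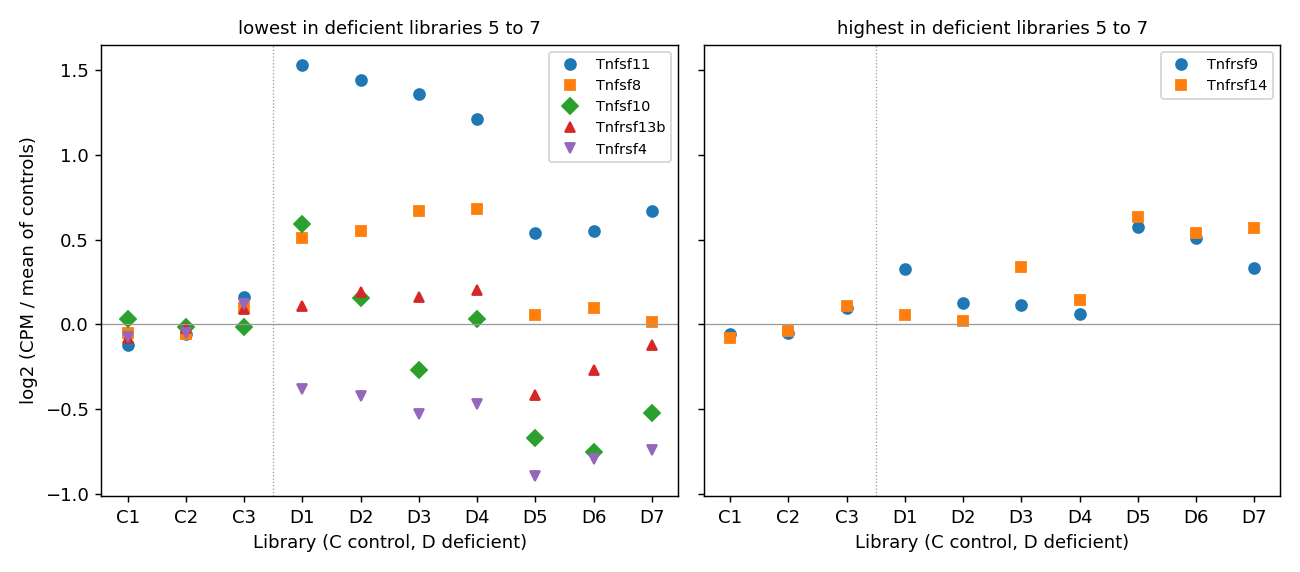
Log2 ratio of CPM to the mean of the controls (vertical axis) in each control (C) and deficient (D) library, for 5 of the 7 tested members lowest and 2 of the 3 highest in deficient libraries 5 to 7, chosen after their values were seen; Tnfsf14, Tnfsf15 and Tnfsf4 are not drawn. Tnfsf8 in D5 to D7 lies within the control range, whereas Tnfrsf14 reaches 15.5, 14.6 and 14.9 CPM there.

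Of the receptors of TNF itself, Tnfrsf1b fell. This gene (ENSMUSG00000028599, chromosome 4, 145213463 to 145246870) encodes TNF receptor type 2, the form prominent on activated T cells, and lies 20266 bases from Tnfrsf8. Controls stood at 23.6, 29.0 and 24.6 CPM, and deficient libraries ranged from 10.3 to 15.3 CPM around a median of 13.0 CPM. Every deficient library was below every control, and the log2 fold change was -1.10 (SE 0.13, edgeR adjusted p = 3.66e-06). Tnfrsf1a, which encodes the death-domain receptor TNF receptor type 1, was low, at 1.93 ± 0.928 and 1.88 ± 0.515 CPM, and no difference was detectable at this depth (edgeR adjusted p = 0.748).

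Of the other receptors with a death domain, 2 rose, beside 29.4% of all genes called higher. Tnfrsf25, given above, and Fas (log2 0.67, edgeR adjusted p = 0.0553) also carry a death domain and did not pass. Tnfrsf10b (chromosome 14, 69767472 to 69784411), the mouse death receptor for TRAIL and a known target of p53, had 5.17, 8.66 and 6.50 CPM in controls 1 to 3, with deficient libraries between 14.2 and 21.5 CPM, median 17.6 CPM. The groups did not overlap, and the log2 fold change was 1.31 (SE 0.171, edgeR adjusted p = 1.03e-05). Its ligand gene Tnfsf10 did not pass, as given above. Tnfrsf21 (chromosome 17, 43016555 to 43089189), which encodes DR6, had controls of 0.345, 0.481 and 0.774 CPM and a deficient range of 1.42 to 3.42 CPM, median 2.697 CPM, so all deficient libraries were higher though the level stayed low. Its log2 fold change was 2.18 (SE 0.414, edgeR adjusted p = 0.000313). Only deficient libraries gave Tnfrsf21 enough reads to be tested.

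Decoy receptors were all low. Tnfrsf11b, the gene of osteoprotegerin, a secreted decoy for RANK ligand, had 4 control counts and 65 deficient counts. Controls stood at 0.172, 0.160 and 0.309 CPM and deficient libraries at 0.521 to 1.25 CPM, median 0.721 CPM, without overlap, and its log2 fold change was 1.78 (SE 0.630, edgeR adjusted p = 0.0211). Only deficient libraries gave this gene enough reads to be tested, so its testing itself depended on its being higher there. The threshold was missed without control library 1 (1.69) or 2 (1.61) and with DESeq2 (1.86), and it had too few reads to be tested in 11 of the 22 alternatives, among them each batch alone and the fits without any 1 of deficient libraries 1, 2, 4, 5, 6 or 7. Tnfrsf22, Tnfrsf23 and Tnfrsf26 stand within a cluster on chromosome 7, of which the first 2 encode decoy receptors for TRAIL in the mouse and share sequence: 27.4% of the 50-base stretches of Tnfrsf22 and 19.3% of those of Tnfrsf23 occur in another gene, so their values are uncertain.

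Within this cluster Tnfrsf23 had controls of 0.690, 1.44 and 2.17 CPM and a deficient range of 0.240 to 1.41 CPM, median 0.606 CPM, with overlap. Its log2 fold change of -1.17 (SE 0.482, edgeR adjusted p = 0.0467) just passed and was lost in 11 of 19 alternatives, among them those without control library 2 (-0.98), control library 3 (-1.02), deficient library 2 (-1.19), 3 (-1.09) or 6 (-0.90). Tnfrsf26 read 31.7, 22.0 and 23.8 CPM against 12.4 to 22.0 CPM, median 19.6 CPM, also with overlap (log2 -0.59, SE 0.181, edgeR adjusted p = 0.0137). It missed the threshold without control library 1, which is its highest library, at -0.37 and within batch 2 at -0.36. Tnfrsf22 stood at 1.98 ± 0.676 and 1.75 ± 0.470 CPM (edgeR adjusted p = 0.531).

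The largest change among the members tested was the fall of Tnfrsf19 (ENSMUSG00000060548, chromosome 14, 60963875 to 61046490). This gene encodes TROY, a TRAF-binding receptor without a death domain that is better known from brain, hair follicle and intestinal stem cells. It had 183, 153 and 269 counts in the controls (31.5, 24.5 and 41.6 CPM) and 0, 1, 1, 4, 0, 0 and 1 counts in deficient libraries 1 to 7. Per length the controls held it at 6.87 RPKM, beside 6.74 RPKM of Tnfrsf1b, and the deficient libraries held next to none. Only the controls gave Tnfrsf19 enough reads to be tested. The pooled rate was 376-fold higher in controls (95% counting interval 181 to 938), and the log2 fold change was -8.40 (edgeR adjusted p = 1.08e-10). Its SE of 0.340 is derived from the F statistic of the test. With 7 deficient counts that SE is narrower than the counting interval and understates the error. Deficient library 4 holds 4 of the 7 deficient counts, and without it the log2 fold change was -9.21; over the alternatives it ran from -9.52 (batch 2 alone) to -7.69 (without deficient libraries 5 to 7). No 50-base stretch of its transcripts occurs in another gene. The noncoding gene Gm41168 overlaps Tnfrsf19 on the opposite strand, and no source gives the strand setting of the counting. Tnfrsf12a (chromosome 17, 23675445 to 23677468), the gene of the TWEAK receptor Fn14, had controls of 7.59, 8.34 and 7.27 CPM and a deficient range of 2.27 to 4.98 CPM, median 3.87 CPM. It fell without overlap, by 1.15 on the log2 scale (SE 0.214, edgeR adjusted p = 0.000287).

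**Figure D4:**
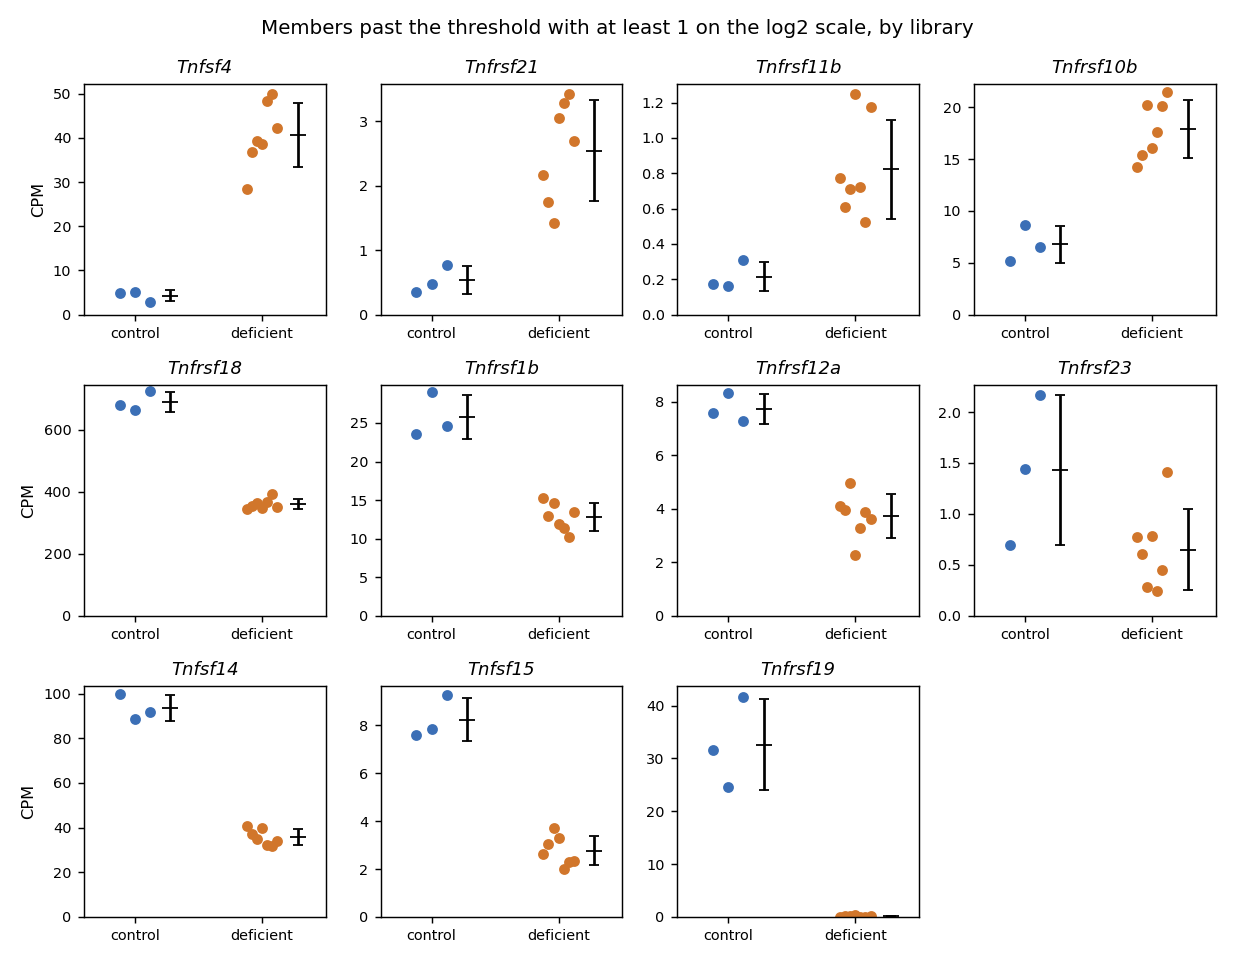
CPM in every library (points) with mean and SD beside them for the 11 members past the threshold with at least 1 on the log2 scale; each vertical axis starts at 0. Of these, Tnfrsf23 is the member whose groups overlap, and the 7 deficient libraries of Tnfrsf19 lie between 0 and 0.313 CPM.

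The receptors of BAFF and APRIL, which sustain B cells, did not pass the test. Tnfrsf13b, the TACI gene, stood at 63.3, 66.1 and 71.3 CPM in controls 1 to 3 and at 72.0, 76.3, 74.97, 77.0, 50.1, 55.6 and 61.6 CPM for deficient libraries 1 to 7. Libraries 1 to 4 lay above and 5 to 7 below all controls. Tnfrsf13b was lowest where the B cell markers summed highest among the deficient libraries. Among the controls it was highest in control 3, where these markers also summed highest (104 CPM against 16.9 and 12.8 CPM). The part of B cells in these values was not tested. The log2 fold change of Tnfrsf13b was -0.10 (SE 0.13, edgeR adjusted p = 0.522), and within batch 2 it passed at -0.35. Tnfrsf13c, which encodes the BAFF receptor, was at 6.66 ± 1.39 and 7.45 ± 1.65 CPM (log2 0.10, edgeR adjusted p = 0.709).

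Promoters are shown for 5 members with a call between the diets, 2 ligands and 3 receptors of both directions, so that their sequences can be set beside the changes. Each is the 250 bases before an annotated start, from RefSeq on build GRCm38.p6, and none of these windows overlaps an annotated exon. All 5 lie on the minus strand: Tnfsf11 at chr14:78308044-78308293, Tnfsf14 at chr17:57194182-57194431, Tnfrsf8 at chr4:145315165-145315414, Tnfrsf1b at chr4:145246871-145247120 and Tnfrsf19, at the farther upstream of its starts, at chr14:61046856-61047105. Capitals mark a match on either strand to TGACTCA (AP-1), TTCNNNGAA (STAT), GGG and CC with 5 free bases between (a loose NF-kappaB pattern), AGATAA for GATA factors, GGTTCA as a half-site of vitamin D response elements or TATAAA as the TATA box, and matches may overlap.
Tnfsf11: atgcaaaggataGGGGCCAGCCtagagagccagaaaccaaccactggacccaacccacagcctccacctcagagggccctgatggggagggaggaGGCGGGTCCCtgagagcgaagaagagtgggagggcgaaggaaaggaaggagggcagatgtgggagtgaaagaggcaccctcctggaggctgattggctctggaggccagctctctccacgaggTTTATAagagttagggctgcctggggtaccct
Tnfsf14: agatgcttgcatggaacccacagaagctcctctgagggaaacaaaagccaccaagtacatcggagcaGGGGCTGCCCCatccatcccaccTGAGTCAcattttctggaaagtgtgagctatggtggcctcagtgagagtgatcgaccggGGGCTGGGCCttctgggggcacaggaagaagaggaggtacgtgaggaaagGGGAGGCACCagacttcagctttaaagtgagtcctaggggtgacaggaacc
Tnfrsf8: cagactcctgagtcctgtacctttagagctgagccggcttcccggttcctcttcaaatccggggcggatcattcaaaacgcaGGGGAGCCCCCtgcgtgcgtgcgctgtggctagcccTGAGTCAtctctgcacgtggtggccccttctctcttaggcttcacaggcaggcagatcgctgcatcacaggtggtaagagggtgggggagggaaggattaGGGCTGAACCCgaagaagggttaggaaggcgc
Tnfrsf1b: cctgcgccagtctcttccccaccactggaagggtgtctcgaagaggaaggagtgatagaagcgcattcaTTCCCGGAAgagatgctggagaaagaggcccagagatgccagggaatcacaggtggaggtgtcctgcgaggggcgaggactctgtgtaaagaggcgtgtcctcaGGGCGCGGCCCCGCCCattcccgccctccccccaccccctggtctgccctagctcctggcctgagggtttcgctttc
Tnfrsf19: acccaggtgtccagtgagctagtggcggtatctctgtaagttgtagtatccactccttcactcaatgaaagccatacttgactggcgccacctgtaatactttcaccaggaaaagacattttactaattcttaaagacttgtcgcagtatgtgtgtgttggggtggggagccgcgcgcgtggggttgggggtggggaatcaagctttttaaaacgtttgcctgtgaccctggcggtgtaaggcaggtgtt

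In these windows Tnfsf11, which rose, has the letters TATAAA on the opposite strand, printed as TTTATA from 32 bases before the start. It also has 2 matches to the NF-kappaB pattern. Tnfsf14, which fell, has 4 matches to the NF-kappaB pattern and a TGACTCA starting 160 bases before the start. Tnfrsf8, which rose, also has TGACTCA (132 bases before the start) and 4 matches to the NF-kappaB pattern, and it holds a GGTTCA that overlaps a pair of them. Tnfrsf1b, which fell, has a match to TTCNNNGAA and 3 to the NF-kappaB pattern, and the window of Tnfrsf19 has no match to any of the 6. Windows with TGACTCA or the NF-kappaB pattern thus occur among members that rose and among those that fell. Both rising members shown, Tnfsf11 and Tnfrsf8, lost the call in some alternatives. The window of Tnfrsf21, which rose in every alternative that tested it and is not printed, has no match to any of the 6. The table covered 25 of the 32 members with 29 windows. Of these 17.2% held the AP-1 letters, 17.2% the STAT letters, 51.7% the NF-kappaB pattern, 3.45% the GATA factor letters, 13.8% the vitamin D half-site and 13.8% the TATA box, against 4.46%, 7.02%, 45.8%, 9.99%, 8.85% and 12.4% of all 32851 windows of that length. A match describes letters and is not evidence of binding, and members with neighbouring or overlapping windows are not independent.

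Members of the superfamily with other symbols are given for completeness of the pathway. Of all genes tested 58.0% passed, as given above. Of 6 other ligand genes tested, 2 rose and 1 fell, 3 in all: Lta, which encodes lymphotoxin alpha, rose by 1.71 on the log2 scale (SE 0.156, edgeR adjusted p = 6.45e-07) from 13.1 ± 1.19 to 45.8 ± 7.54 CPM, Tnf rose by 0.87 (edgeR adjusted p = 0.00108), and Cd40lg, the helper signal to B cells, fell by 0.50 (edgeR adjusted p = 0.0279). Tnf rose while its receptor gene Tnfrsf1b fell. Tnf was lowest within the deficient group in libraries 5 to 7 (63.0, 70.3 and 77.2 CPM against 94.7 CPM or more). Of 5 other receptor genes tested, 2 rose and 1 fell. Eda2r, a receptor of ectodysplasin and known p53 target, rose by 3.42 (SE 0.252, edgeR adjusted p = 8.81e-08) from 2.32 ± 0.281 to 26.5 ± 5.68 CPM, and Cd40 by 1.75 from 0.787 ± 0.699 to 2.65 ± 1.42 CPM. Cd27 fell by 0.77 with overlap between the groups: deficient libraries 1 to 4 lay at 5.41 to 5.84 CPM and libraries 5 to 7 at 11.7, 11.9 and 8.80 CPM, against 11.9 to 13.5 CPM in controls. Cd40 was highest in deficient libraries 5, 6 and 7 (3.13, 3.80 and 5.04 CPM), where B cell markers were highest too, and their part in the result was not tested.

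Adaptors and effectors downstream of the receptors moved both ways, and their counts stand beside 29.4% of all genes called higher and 28.6% called lower. Of 7 TRAF genes 4 fell and 0 rose (median log2 fold change -0.21, against 0.02 over all genes). Traf5, an adaptor of OX40 and CD30, fell furthest, from 25.9 ± 1.57 to 9.29 ± 1.08 CPM (log2 -1.58, SE 0.112, edgeR adjusted p = 1.70e-08), and Traf7, Traf6 and Traf3 fell by 0.58, 0.33 and 0.21. In the ubiquitin and kinase complex of the receptors 7 of 16 fell and 2 rose (median -0.07): Rnf31, a subunit of the linear ubiquitin ligase, and Birc3, the ubiquitin ligase cIAP2, fell by 0.96 and 0.63, Rbck1, another subunit of the linear ubiquitin ligase and named here after its value was seen, rose by 0.35, the kinase gene Map3k5 fell by 0.79, and Map3k8 rose by 0.42. Of 9 genes of the death domain and caspase arm 6 rose and 1 fell (median 0.36), with Bid at 1.26 and the caspase inhibitor gene Cflar at 0.44 among those that rose and Ripk3 at -0.71. Of 12 genes of the NF-kappaB arm 4 rose and 6 fell (median -0.24). Nfkb2, which encodes the precursor of the non-canonical pathway, rose by 0.95, Nfkb1 by 0.24, and the inhibitor gene Nfkbie and the kinase gene Ikbkb fell by 0.77 and 0.49. Relb and Map3k14, also of this arm and named here after their values were seen, fell by 0.55 and 0.37. The genes named beside Nfkb2 thus did not share its direction.

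The batches were compared by adding a product of diet and batch to the model. At the adjusted threshold 0 of the 26 members and 0% of 13699 genes were called by edgeR, and 2 members, Tnfsf4 and Tnfsf8, had an unadjusted p under 0.05 (0.0339 and 0.0443), beside 4.12% of all genes. The test rests on 1 control library in batch 2. The next fit leaves out deficient library 5, which was set apart by the values of Tnfsf11, Tnfsf8 and Tnfrsf4, among other members. Batch and that split of the deficient libraries then coincide. Calls for the members that showed the split are therefore built in and do not test a batch effect. Without deficient library 5, the library of batch 1 whose values above lie with those of libraries 6 and 7, 3 members were called: Tnfsf11 at -0.99, Tnfsf8 at -0.66 and Tnfrsf4 at -0.46 (log2, effect in batch 2 minus that in batch 1; edgeR adjusted p = 0.00321, 0.00305 and 0.0471), beside 1.19% of all genes.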

How the data were processed

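The authors deposited unnormalized counts of reads for each Ensembl gene in 10 libraries. The submitters' processing notes name STAR 2.7.10a, HTSeq 0.13.5 and the build GRCm38. Libraries were stranded total RNA, per the labels' protocols; no source used here gives the strand setting or annotation release of the counting. IDs were matched to GENCODE M21 (49412 of 49671). CPM used plain library totals, and RPKM the merged exons of each gene.

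Genes kept by filterByExpr (minimum count 10, batch and diet design, 13699 genes) were scaled by TMM. They were tested with glmQLFit (robust) and glmQLFTest in edgeR 4.0.16, R 4.3.3. The p-values were adjusted by Benjamini-Hochberg over all genes. Each SE is the absolute log2 coefficient divided by the square root of the test's F statistic, so it can understate the error at counts near 0. Replicate numbers follow accession order. Library pairs of a group differed by more than sampling noise (chi-square per gene 2.82 to 49.9). Counts were simulated for the deficient against control comparison with 13699 genes. There 37 of 67 genes with a 1.5-fold change were found, as were 49 of 67 at 2-fold and 63 of 66 at 4-fold. Of the 163 calls 14 were false. Far fewer genes changed in the simulation than the 58.0% called in the data, which shifts the adjusted cutoff. These rates therefore need not hold for the data. Every tested member is named; those past the threshold at 1 or more on the log2 scale are given in full, and from each gene list up to 4 past the threshold of smallest p, of which 1 is not reported here. The members, the gene lists and the alternatives were chosen with earlier results of these data known. Alternatives were other scalings, filters and tools (DESeq2 1.42.0, limma-voom 3.58.1), no batch term, each batch alone, counts thinned to the shallowest library, an adjusted p below 0.01, each library left out, and the longest transcript as gene length; upper quartile scaling and the fit without deficient libraries 5 to 7 were added after the data were seen. Figures were drawn with matplotlib 3.10.9.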

Additional observations from a re-analysis of the deposited data

Results flagged for a closer look

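In the deficient group of 7 libraries, Tnfrsf8 in library 3 stood at 45.4 CPM, with a gap to its nearest neighbour of 0.724 of the group's range, and Tnfrsf22 in library 4 stood at 2.66 CPM, with a gap of 0.573 of the range. Both exceed Dixon's critical value for 7 samples. With 26 members examined, chance alone singles out about 1 in 20 groups.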

How the results depend on the processing

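Of the 15 members called, 10 kept direction and call in every alternative that tested them: Tnfsf4, Tnfsf14, Tnfsf15, Tnfrsf10b, Tnfrsf12a, Tnfrsf18, Tnfrsf19, Tnfrsf1b, Tnfrsf21 and Tnfrsf4. The other 5 (Tnfsf11, Tnfrsf8, Tnfrsf11b, Tnfrsf23 and Tnfrsf26) lost the call in at least 1 alternative and kept their direction. The number of members higher was 6 and ranged from 3 to 7 when 1 library was left out, and the number lower was 9 and ranged from 8 to 10. With an adjusted p below 0.01 the members higher were 3, since the threshold is stricter. Without deficient libraries 5 to 7 they were 5 higher and 8 lower. The diet by batch product called 0 members and from 0 to 3 with 1 library left out; it could not be fitted without control library 3 or without deficient libraries 5 to 7, whose removal empties a cell of the design. With the longest transcript as length, 20 and 18 members were again at 1 RPKM or more in control and deficient cells. Tested members with a control mean under 1 CPM rest on 4 to 12 control counts. Total counts scaling gave 8 higher and 8 lower. No paired analysis was possible because the replicate numbers follow accession order and pair no libraries.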
